A study of Mus musculus with 36 samples.

Results

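The genes described here belong to the families of enzymes that acetylate and methylate histones and of enzymes that remove these marks. They were chosen by symbol from the 40205 features counted in each library, namely all Hdac, Sirt, Kat, Kmt, Kdm, Setd and Prmt genes with a number, together with Ezh1, Ezh2, Ep300 and Crebbp. The sex-linked Kdm5c, Kdm5d and Kdm6a were left out. This gave 69 genes. By the role of their family, 18 remove acetyl groups (11 Hdac and 7 Sirt genes), 10 add them, 18 methylate lysine, 15 demethylate lysine and 8 methylate arginine. The role follows the symbol, and some members act on other proteins, as given below for Setd3, Setd6 and Prmt9. RNA had been sequenced from fetal mouse neural stem cells (NSCs) grown as neurospheres, non-adherent clusters of dividing progenitors, and from the extracellular vesicles (EVs) that the cells released into the medium. The cultures came from gestational day 12.5 dorsal telencephalon of C57/Bl/6J matings (the study's methods add that the mice were of the Ai14 line), and a female and a male culture were made from each of 3 pregnancies (sets 3, 4 and 5, so that 3F is the female culture of set 3). Each of the 6 cultures, a pool of same-sex littermates, was kept for 5 days without ethanol (0 mg/dL) or with ethanol at 120 mg/dL (26 mM) or 320 mg/dL (70 mM), which gave 6 groups of location and dose with 6 libraries each. Libraries of a culture at different doses therefore come from the same animals, the exposure took place in vitro in passaged cells, and EVs were separated from medium by size and ultracentrifugation.

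Histone acetylation loosens the contact between nucleosomes and DNA and recruits bromodomain proteins, whereas histone methylation acts through proteins that read a particular lysine or arginine and can accompany either active or silent chromatin. In neural progenitors these enzymes hold lineage genes in reserve: Polycomb methylation by Ezh2 opposes the MLL-type Kmt2 enzymes, and deacetylases in corepressor complexes delay neuronal genes. The proteins work in the nucleus for the most part, so the values below are levels of their RNA in cells and in EVs and say nothing of enzyme activity.

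Library totals were 26566061 to 55282322 counts in cells and 959217 to 5509952 in EVs. The 69 genes together took 0.197 to 0.438% of the counts in cells, or 52414 to 192364 counts, and 0.0873 to 0.36% in EVs, or 1352 to 12176 counts. Of the 69 genes, 33 had at least 10 counts in every EV library and 7 had no count in at least 1 of them. The EV library of culture 4F at 320 mg/dL stood apart, with the lowest share for these genes, and 6 EV libraries held at most 1605442 counts. Levels are given as CPM, counts relative to the library total after TMM scaling, which matches libraries on the bulk of their genes. Of 10 NSC markers Nes had a median of 257 CPM in cells and 151 in EVs and Fabp7 721 and 250 CPM. Pax6, Vim, Hes1 and Slc1a3 also had lower medians in EVs. Hes5 (13.4 and 48.9 CPM) and Prom1 (22.3 and 27.4 CPM) had higher ones, and Sox1 and Sox2 were listed at 0 in all libraries. In control libraries the median sums in cells and EVs were 683 and 256 CPM for 6 neuronal markers, mostly Map2. They were 165 and 46.2 CPM for 5 astrocyte markers and 109 and 83.9 CPM for 5 oligodendrocyte-lineage markers. The summed level of 5 microglial markers was 0.306 to 0.607 CPM in cells and 0 to 11.7 in EVs, with P2ry12 listed at 0 in all libraries. That of 4 endothelial markers was 1.28 to 4.09 CPM in cells and 2.72 to 76.1 in EVs, mostly from Flt1 (2.07 to 73.5 CPM in EVs), with Cldn5 listed at 0 in every EV library. The part of such RNA in the differences between EVs and cells was not tested.

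Stretches of coding sequence from 8 of the genes described below are shown because base composition is later set beside the differences between EVs and cells. Each is 60 bases from the middle of the longest coding exon of the gene's canonical transcript, on the gene's own strand of GRCm39 (GENCODE), with G and C in capitals. Of genes higher in EVs they are Kat5 at chr19:5657838-5657897 (minus strand, 56.7% G and C), Kmt2a at chr9:44731668-44731727 (minus strand, 51.7% G and C) and Kmt2d at chr15:98742921-98742980 (minus strand, 56.7% G and C). Of genes lower in EVs they are Sirt1 at chr10:63157773-63157832 (minus strand, 43.3% G and C), Kdm3a at chr6:71588714-71588773 (minus strand, 51.7% G and C), Kdm5a at chr6:120404020-120404079 (plus strand, 46.7% G and C), Hdac2 at chr10:36874457-36874516 (plus strand, 45.0% G and C) and Prmt1 at chr7:44631209-44631268 (minus strand, 53.3% G and C). The windows of Kmt2a and Kdm3a, which differed in opposite directions, held the same share of G and C, and that of Prmt1 held more.
Kat5: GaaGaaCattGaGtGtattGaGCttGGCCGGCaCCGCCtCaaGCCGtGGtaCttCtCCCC
Kmt2a: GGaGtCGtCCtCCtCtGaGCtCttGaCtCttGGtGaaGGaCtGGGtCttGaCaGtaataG
Kmt2d: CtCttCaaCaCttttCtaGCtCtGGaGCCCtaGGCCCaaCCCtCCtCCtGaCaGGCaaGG
Sirt1: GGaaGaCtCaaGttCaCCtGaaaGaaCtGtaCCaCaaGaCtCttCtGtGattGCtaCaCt
Kdm3a: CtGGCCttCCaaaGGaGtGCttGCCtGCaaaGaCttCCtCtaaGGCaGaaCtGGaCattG
Kdm5a: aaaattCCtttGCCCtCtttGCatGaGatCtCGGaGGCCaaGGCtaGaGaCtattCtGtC
Hdac2: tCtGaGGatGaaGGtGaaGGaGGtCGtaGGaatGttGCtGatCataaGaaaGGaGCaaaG
Prmt1: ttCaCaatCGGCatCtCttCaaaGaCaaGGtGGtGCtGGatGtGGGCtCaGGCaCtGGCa

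EVs were compared with cells over all 36 libraries with edgeR's quasi-likelihood test, with terms for sex and dose. After a filter on low counts, 67 of the 69 genes could be tested (Kdm4d and Prmt8 could not), and 53 differed at a Benjamini-Hochberg adjusted p under 0.05, which is 79.1% against 80.5% of all 15281 genes tested. Of them 20 were higher in EVs, where 38.4% of all tested genes were higher, and 33 were lower, where 42.2% were lower. In such bulk RNA, less RNA of a gene per cell or vesicle and fewer cells or vesicles that carry it cannot be told apart, and the 18 libraries of each kind come from 6 cultures, so the p-values measure the spread between libraries. The median log2 fold change was -0.31, and that of all tested genes was -0.08. This gap of -0.24 was 0.076 after all libraries were thinned to one depth, with 24 genes higher and 17 lower of 56 tested. It was -0.028 without set 4 and -1.89 with DESeq2. DESeq2 was run without the filter on low counts, so its median of all genes takes in many more genes with low counts. The acetyltransferase gene Kat5 stood 18.5-fold higher in EVs and the methyltransferase genes Kmt2a and Kmt2d 7.03-fold and 3.69-fold, whereas Sirt1, Kdm3a, Kdm5a and Hdac2 were 3.26 to 3.88-fold lower. Of the 53 genes, 42 differed in one direction in all 6 cultures, a count given without the share of all genes. There was no overlap between the 18 EV and the 18 cell libraries for 15 of the 69 (21.7%) and for 23.8% of all tested genes. The number of higher genes depended on the scaling: with library totals 7 genes were higher and 53 lower, and the median of all genes moved from -0.08 to -0.88. With median-of-ratios factors 22 were higher and 33 lower. Under 13 alternatives 7 of the 20 higher genes (Kat5, Kat6b, Kmt2a, Kmt2d, Kmt5a, Kmt5c and Setd1b) and 19 of the 33 lower genes were called the same way in every one that tested them. Such counts are not given for all tested genes, so neither these nor the splits under other scalings set the 69 genes apart. The sign changed in at least 1 alternative for 12 of the 53 genes, 11 of them higher in EVs (Hdac5, Kat14, Kat6a, Kat7, Kdm4b, Kdm8, Prmt2, Setd5, Setd7, Sirt5 and Sirt7) and 1 lower (Kdm5b).

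**Figure D1:**
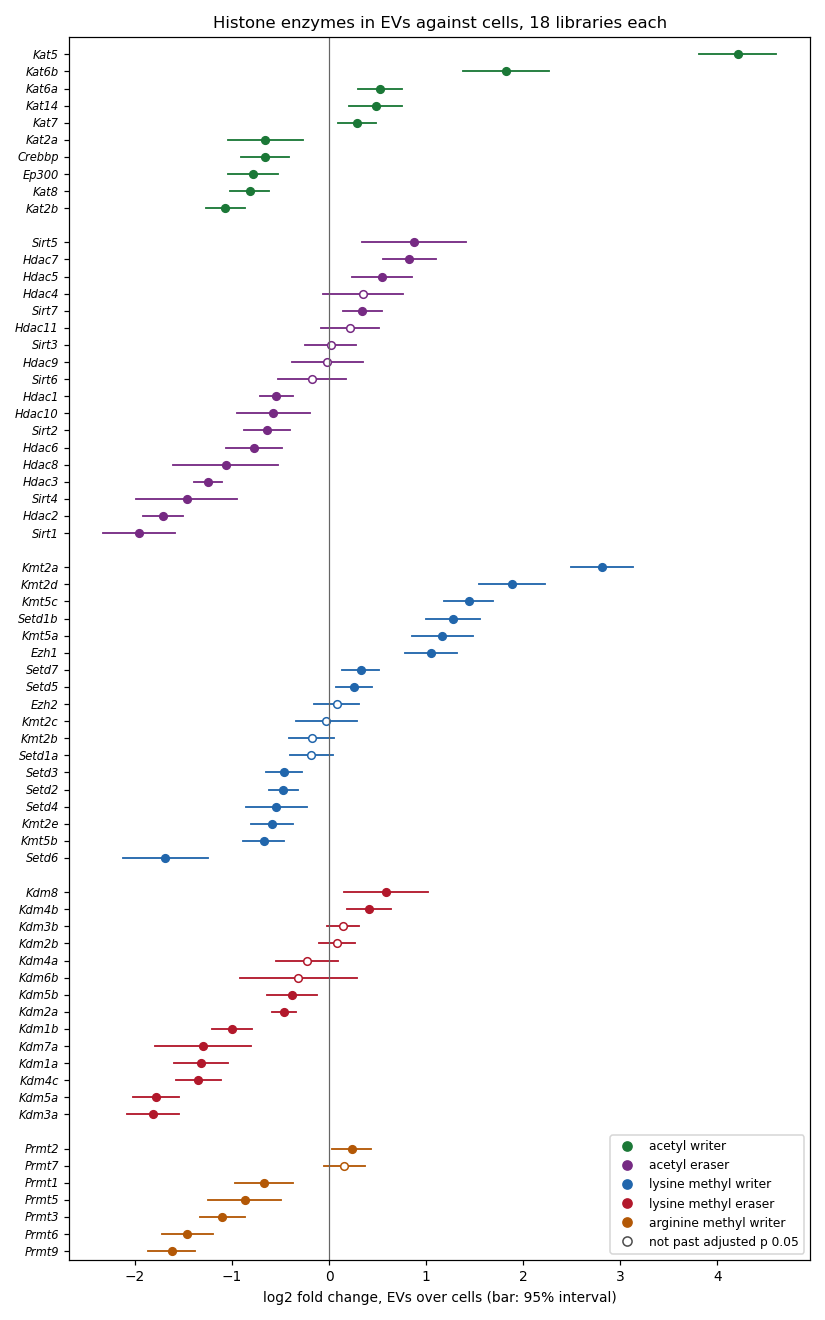
Log2 fold change of EVs over cells for the 67 tested genes, by role, with 95% intervals; filled points passed an adjusted p of 0.05. Kat5 lies farthest to the right at 4.21, and Sirt1 farthest to the left at -1.96.

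All 10 acetyltransferase genes differed between EVs and cells, 5 in each direction. Kat5, the catalytic subunit of the TIP60 complex that acetylates histone H4 and acts in transcription and DNA repair, is on chromosome 19 (GRCm39, 5653038 to 5660271). Its levels were 19.2, 22.4 and 28.2 CPM as lowest, median and highest of 18 cell libraries and 189, 342 and 1182 CPM in EVs, so the groups were far apart. Its raw counts, 503 to 1881 in cells and 115 to 1870 in EVs, covered similar ranges although EV libraries were much smaller. The log2 fold change was 4.21 (adjusted p = 2.34e-20, SE 0.20), positive in 6 of 6 cultures. Kat5 made up 0.615 to 1.18% of the counts of the 69 genes in cells and 7.15 to 27% in EVs. Its exons share 653 bases with Rnaseh2c and 247 with the noncoding Gm59325, both on the opposite strand. Rnaseh2c, a subunit of a ribonuclease, was lower in EVs (log2 fold change -1.02, adjusted p = 4.15e-05, SE 0.21), and Gm59325 was not looked at. The part of shared bases in the Kat5 counts was not tested.

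Kat6b, which acetylates histone H3 and is needed for cerebral cortex development, had 22.2, 38.5 and 50.7 CPM as lowest, median and highest in cells and 38.0, 130 and 297 CPM in EVs. Of the 18 EV libraries 2 lay within the range of the cells, and the log2 fold change was 1.82 (adjusted p = 1.69e-09, SE 0.22). Its paralogue Kat6a was higher by 0.53 (adjusted p = 5.7e-05, SE 0.11), a difference that became -0.21 with library totals. The coactivators Ep300 and Crebbp, closely related acetyltransferases recruited by many transcription factors, were both lower in EVs. Ep300 had 50.1 ± 10.9 CPM in cells and 28.5 ± 7.95 in EVs (SD, n = 18 each) and a log2 fold change of -0.79 (adjusted p = 9.35e-07, SE 0.13). Crebbp had 90.8 ± 25.7 and 57.4 ± 11.8 CPM and a log2 fold change of -0.66 (adjusted p = 7.82e-06, SE 0.12). For both genes the EV and cell ranges overlapped. Kat2b, a coactivator of the SAGA type, was lower by more than its paralogue Kat2a, with log2 fold changes of -1.07 (adjusted p = 3.25e-12, SE 0.10) and -0.66 (adjusted p = 0.00197, SE 0.19). Kat8, which acetylates lysine 16 of histone H4, was lower as well (log2 fold change -0.82, adjusted p = 3.3e-09, SE 0.10).

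Among the 18 deacetylase genes 4 were higher in EVs, 9 were lower and 5 did not pass. All 4 class I genes, Hdac1, Hdac2, Hdac3 and Hdac8, were lower in EVs with a median log2 fold change of -1.16. The first 3 encode the nuclear enzymes of corepressor complexes. Hdac2 (chromosome 10, 36850435 to 36877890) had 87.5, 112 and 137 CPM as lowest, median and highest in cells and 22.1, 30.2 and 52.6 CPM in EVs, from 13 to 169 counts. No EV library reached the lowest cell library, and the log2 fold change was -1.71 (adjusted p = 1.9e-17, SE 0.10). Hdac3, the deacetylase of NCoR and SMRT, had 31.2 ± 2.90 CPM in cells and 13.4 ± 2.51 in EVs (SD, n = 18 each), without overlap (log2 fold change -1.25, adjusted p = 1.36e-17, SE 0.07). Hdac1, the close paralogue of Hdac2, differed by less, with medians of 18.2 CPM in cells and 11.7 in EVs (log2 fold change -0.54, adjusted p = 4.26e-07, SE 0.08). Of the 4 class IIa genes, whose products shuttle between nucleus and cytoplasm, Hdac5 and Hdac7 were higher and Hdac4 and Hdac9 did not pass. Hdac7 had 17.6 ± 5.08 CPM in cells and 31.6 ± 7.71 in EVs, a log2 fold change of 0.83 (adjusted p = 7.86e-07, SE 0.13), and 0.06 with library totals. Hdac5 was higher by 0.55 (adjusted p = 0.00153, SE 0.15), and by 0.14 (adjusted p = 0.404) without set 3. On the opposite strand, exons of Hdac7 share 2396 bases with Slc48a1 and those of Hdac5 2826 with G6pc3, and the part of shared bases in the counts was not tested.

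The sirtuins are NAD-dependent deacylases, some nuclear and some mitochondrial. Sirt1 (chromosome 10, 63154581 to 63217483), a nuclear sirtuin that deacetylates histones and transcription factors, had 15.9, 25.5 and 39.9 CPM as lowest, median and highest in cells and 1.03, 6.75 and 11.1 CPM in EVs, from 1 to 34 counts. All EV libraries lay below all cell libraries, and the log2 fold change was -1.96 (adjusted p = 4.35e-12, SE 0.18). The cytoplasmic Sirt2 and the mitochondrial Sirt4 were also lower (-0.64 and -1.47), Sirt3 and Sirt6 did not pass, and Sirt7 was higher by 0.34. The mitochondrial Sirt5 was higher by 0.88 (adjusted p = 0.00316, SE 0.27), but 1 library decided this. The EV library of culture 4F at 320 mg/dL had 100 CPM of Sirt5 (59 counts) against at most 16.2 in the other EV libraries, and without it the log2 fold change was 0.28 (adjusted p = 0.152).

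Of the 18 lysine methyltransferase genes 8 were higher in EVs, 6 were lower and 4 did not pass. Kmt2a and Kmt2d encode MLL-type enzymes that methylate lysine 4 of histone H3, at promoters and at enhancers respectively. Kmt2a (chromosome 9, 44714652 to 44792621) had 19.0, 42.2 and 76.9 CPM as lowest, median and highest in cells and 136, 285 and 594 CPM in EVs, from 80 to 1523 counts, with a log2 fold change of 2.81 (adjusted p = 4.53e-18, SE 0.16). The exons of Kmt2a share 751 bases with Gm48702 and 477 with Gm39326 on the opposite strand. Kmt2d (chromosome 15, 98729550 to 98769085) had 16.8, 39.9 and 69.4 CPM in cells and 75.7, 131 and 367 CPM in EVs, with a log2 fold change of 1.89 (adjusted p = 1.08e-12, SE 0.17). Neither gene had an EV library within the range of the cells. Of the 6 genes of the MLL and SETD1 type 3 were higher (Kmt2a, Kmt2d and Setd1b) and 3 did not pass (Kmt2b, Kmt2c and Setd1a, at -0.18, -0.03 and -0.18).

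The writers of lysine 20 of histone H4 split by family member. Kmt5a, which adds the first methyl group, was higher (log2 fold change 1.17, adjusted p = 1.7e-08, SE 0.16), and so was Kmt5c, which adds further groups (1.44, adjusted p = 8.52e-13, SE 0.13), without overlap between EV and cell libraries. Kmt5b, which carries out the same step as Kmt5c, was lower (-0.67, adjusted p = 3.57e-07, SE 0.10). Ezh2, the main Polycomb methyltransferase of dividing cells, had 37.2, 45.2 and 74.2 CPM as lowest, median and highest in cells and 20.4, 56.1 and 71.2 in EVs, a difference of 0.08 (95% interval -0.15 to 0.31, adjusted p = 0.533) that was -0.71 with library totals. Ezh1, which takes this role in non-dividing cells, was higher in EVs at a lower level, with 6.88 ± 1.11 and 14.7 ± 5.19 CPM (log2 fold change 1.05, adjusted p = 4.09e-09, SE 0.13). Setd2, the enzyme that trimethylates lysine 36 of histone H3, was lower by a small margin (-0.47, adjusted p = 3.42e-07, SE 0.07). Setd6, which methylates non-histone proteins, had the largest decrease of the writers (-1.69, adjusted p = 8.08e-09, SE 0.22) from 0 to 10 counts per EV library.

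Among the 15 lysine demethylase genes 14 were tested, of which 8 were lower in EVs, 2 were higher (Kdm4b and Kdm8, each with the sign changed in 2 alternatives) and 4 did not pass. Kdm3a (chromosome 6, 71565956 to 71610472), which removes methyl groups from lysine 9 of histone H3, had 42.2, 65.5 and 84.9 CPM as lowest, median and highest in cells and 6.64, 17.2 and 35.2 CPM in EVs, with a log2 fold change of -1.81 (adjusted p = 4.71e-15, SE 0.13). Kdm5a (chromosome 6, 120341068 to 120421535) removes the mark on lysine 4 of histone H3 that the Kmt2 enzymes place. It had 58.4, 83.1 and 115 CPM in cells and 15.4, 24.8 and 33.5 CPM in EVs, with a log2 fold change of -1.78 (adjusted p = 2.12e-16, SE 0.11). Kdm1a, the flavin-dependent demethylase of the CoREST complex, was lower too (-1.32, adjusted p = 4.11e-11, SE 0.13). These 3 genes and Kdm4c had no overlap between EVs and cells. Kdm6b, which removes the Polycomb mark, varied widely in cells, from 6.57 to 94.6 CPM, and did not pass (-0.31, adjusted p = 0.329, SE 0.30).

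Of the 8 arginine methyltransferase genes 7 were tested, and 5 were lower in EVs, Prmt2 was higher by 0.23 and Prmt7 did not pass. The sign of Prmt2 changed in 3 of 13 alternatives. Prmt9 (chromosome 8, 78275532 to 78309818), which methylates a splicing factor, had 11.9, 13.8 and 16.3 CPM as lowest, median and highest in cells and 2.11, 4.53 and 7.78 CPM in EVs, from 2 to 25 counts. The log2 fold change was -1.62 (adjusted p = 8.61e-15, SE 0.12). Prmt6, which methylates arginine 2 of histone H3, followed with -1.46 (adjusted p = 9.92e-13, SE 0.13). Prmt1 and Prmt5, the principal enzymes of asymmetric and symmetric arginine methylation, had log2 differences of -0.67 (adjusted p = 8.98e-05, SE 0.15) and -0.87 (adjusted p = 6.51e-05, SE 0.19), with overlap between the groups. Prmt8, not tested for its low counts, had 5 to 28 counts in cells and 0 to 17 in EVs, and Kdm4d 7 to 51 and 0 to 8.

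**Figure D2:**
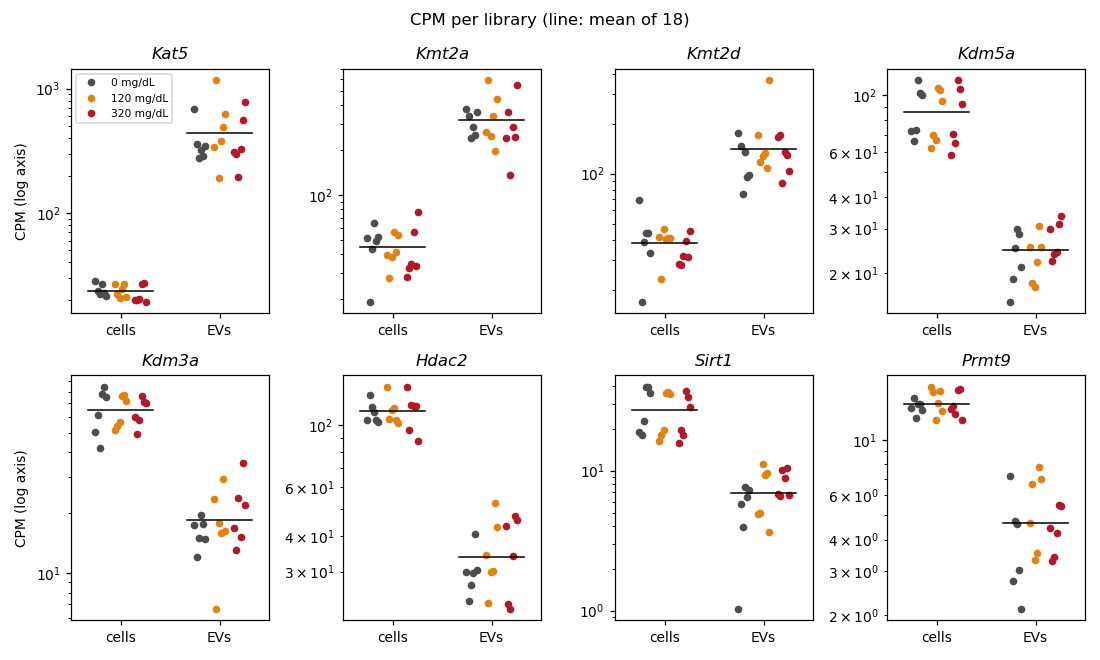
CPM of 8 genes in every library (log axes that differ between panels and do not start at 0), cells on the left and EVs on the right, coloured by ethanol dose, with the mean of 18 libraries as a line. In each panel the EV and cell libraries do not overlap, with Kat5 at 19.2 to 28.2 CPM in cells and 189 to 1182 in EVs.

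Partner subunits of these enzymes went in both directions. Of a list of 97 other histone-modifying genes, 94 were tested, 31 were higher and 42 lower in EVs (77.7% called against 80.5% of all tested genes), with a median log2 fold change of -0.07. Grouped by complex after their values were known, 4 of 5 partners of Kat5 in the TIP60 complex were lower (Trrap -0.69, Epc1 -0.91, Epc2 -1.72 and Ing3 -1.39) and 1 was higher (Meaf6 1.60). Of 7 partners of the MLL and SETD1 enzymes 4 were lower, among them the scaffold Men1 at -1.23, 2 were higher (Wdr5 1.85 and Cxxc1 2.00) and 1 did not pass. Of 7 partners of Ezh1 and Ezh2 in the Polycomb complex 4 were lower (Mtf2 -1.44, Eed -1.37, Suz12 -0.65 and Aebp2 -0.42). The other 3 were higher (Phf1 1.98, Jarid2 1.97 and Phf19 0.87). Of 10 corepressor subunits that hold class I deacetylases 6 were lower, such as Sin3b at -1.21 and Mta2 at -1.08, and 3 were higher, such as Mta1 at 0.97. These groups hold only part of the 97 genes. Other subunits in the list, such as Sap30, Chd4 and Ncoa6, were left out, so the splits do not describe whole complexes.

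Per length of exons, Hdac2 had the highest level of the tested genes in cells, with 19.2 ± 2.23 CPM per kilobase (SD, n = 18), followed by Kat6a with 14.5 ± 3.24 and Kdm1a with 10.8 ± 1.89. The lowest were Sirt6 with 0.491 ± 0.0621, Setd4 with 0.463 ± 0.038 and Setd1b with 0.382 ± 0.118 CPM per kilobase, where Sirt6 and Setd4 lay within 1 SD of each other. In EVs the order was headed by Kat5 with 119 ± 66.8, ahead of Kat6a with 21.0 ± 4.59 and Kmt2a with 19.1 ± 6.95 CPM per kilobase, and the last pair did not differ beyond their spread. Exon lengths here are unions over all annotated transcripts.

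Across the 67 genes the log2 fold change was higher where exons held more G and C, with a Pearson correlation across genes of 0.455 and a Spearman correlation of 0.473. Over 13007 tested protein-coding genes the values were 0.248 and 0.29. All points come from the same libraries, genes are not independent replicates, and this property was looked at after the values were known. Exons of Kat5 and Kmt2d held 56.3 and 58.3% G and C and those of Hdac2 and Sirt1 40.9 and 42.9%, but Kat6b, at 45.1%, was also higher in EVs. With exon length the correlation was 0.154, and with the span of the gene -0.014.

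**Figure D3:**
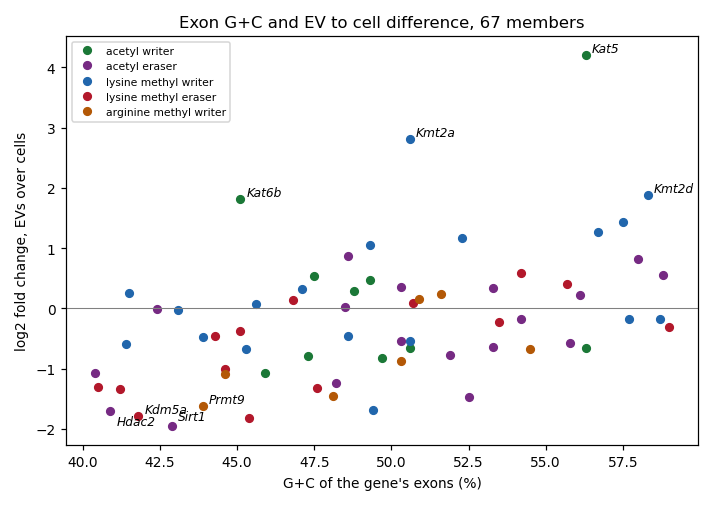
Exon G and C content (%) against the log2 ratio of EV to cell level for 67 genes, coloured by role. Kat5 and Kmt2d lie at the upper right and Hdac2, Sirt1 and Kdm5a at the lower left.

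Ethanol was compared with control within cells and within EVs, with the culture as a block, and edgeR called no gene of the 69 at either dose, while DESeq2 called 1, Prmt1 in cells at 320 mg/dL. The comparisons with control share the 0 mg/dL libraries. In cells at 120 mg/dL 0 of 69 genes were called by edgeR (0% of all 17792 tested genes), 0 had an unadjusted p under 0.05 (2.5% of all genes), and DESeq2 called 0. The log2 fold changes lay below 0 for 55 of 69 genes, with a median of -0.05 against -0.01 for all genes. The smallest p-values were those of Kmt5a at -0.17 (SE 0.08), Sirt1 at -0.12 (SE 0.07) and Hdac5 at -0.23 (SE 0.14), each with an adjusted p of 1.

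In cells at 320 mg/dL 0 of 69 genes were called by edgeR (0.0393% of all genes, 0.0225% higher and 0.0169% lower), 5 had an unadjusted p under 0.05 (7.25% against 8.57% of all genes), and DESeq2 called 1, Prmt1 (0.308% of all genes it tested). Prmt1, at chromosome 7 from 44624620 to 44635992, had control values in cultures 3F, 3M, 4F, 4M, 5F and 5M of 50.7, 48.7, 48.0, 27.5, 24.2 and 26.6 CPM. At 120 mg/dL they were 55.8, 41.6, 42.6, 27.5, 23.9 and 24.6 CPM, and at 320 mg/dL 42.1, 40.4, 38.8, 23.1, 21.4 and 21.2 CPM. The groups overlapped because the cultures differed, but in 6 of 6 cultures Prmt1 was lower at 320 mg/dL than in its own control, by 0.18 to 0.33 on the log2 scale. The fitted log2 fold change was -0.26 (SE 0.05, 95% interval -0.38 to -0.15, adjusted p = 0.165), and DESeq2 gave -0.25 with an adjusted p of 0.0105. Against 120 mg/dL it was -0.19 (adjusted p = 1, SE 0.05). Kdm1b, the other flavin-dependent demethylase of histones, had 18.1 ± 1.15 CPM in controls and 15.7 ± 0.973 at 320 mg/dL (SD, n = 6 each) and did not pass (-0.20, adjusted p = 0.304, SE 0.06), and was lower in 6 of 6 cultures. Prmt2 had a log2 fold change of -0.22 (adjusted p = 0.366, SE 0.07) and was lower in 5 of 6. Over all 69 genes 49 lay below 0, with a median of -0.06 against -0.01 for all genes. Without the cell library of culture 3F at 320 mg/dL the median of the 69 genes was -0.0034.

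Between the doses in cells, 320 against 120 mg/dL, 0 of 69 genes were called by edgeR (0% of all genes) and 0 by DESeq2, and 2 had an unadjusted p under 0.05 (2.9% against 3.56%). These were Prmt1 and Kdm1b.

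In EVs 65 of the 69 genes passed the count filter for the dose tests, and at 120 mg/dL 0 were called by edgeR (0.00842% of 11880 tested genes) or by DESeq2, with 2 at an unadjusted p under 0.05 (3.08% against 6.26%). These were Setd3, an actin methyltransferase, at -0.31 (adjusted p = 0.769, SE 0.11), and Setd1a at 0.36 (adjusted p = 0.791, SE 0.16). At 320 mg/dL 0 were called by edgeR (0.0842% of all genes, 0.0168% higher and 0.0673% lower) or by DESeq2, and 3 had an unadjusted p under 0.05 (4.62% against 11.9%), namely Crebbp, Setd1a and Hdac2. Crebbp (chromosome 16, 3899192 to 4031861) had control values in EVs of cultures 3F, 3M, 4F, 4M, 5F and 5M of 55.5, 43.3, 39.4, 59.985, 59.0 and 46.7 CPM, and 66.9, 47.5, 62.8, 54.1, 84.8 and 80.4 CPM at 320 mg/dL. The groups overlapped, 5 of 6 cultures were higher than their control, and the log2 fold change was 0.37 (SE 0.12, 95% interval 0.11 to 0.62, adjusted p = 0.22). Setd1a (chromosome 7, 127375842 to 127399294) was higher in 6 of 6 cultures, from 12.3 ± 2.46 CPM in controls to 17.0 ± 5.72 (SD, n = 6 each), with 0.44 (adjusted p = 0.271, SE 0.16), on 5 to 61 counts per library. Its exons share 3523 bases with Gm49388 on the same strand, so its counts are uncertain. Hdac2 had 0.25 (adjusted p = 0.4, SE 0.11). Between 320 and 120 mg/dL in EVs 0 genes were called by edgeR (0% of all genes) or DESeq2, and 3 had an unadjusted p under 0.05 (4.62% against 3.69%), Setd3, Prmt5 and Kdm2a.

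**Figure D4:**
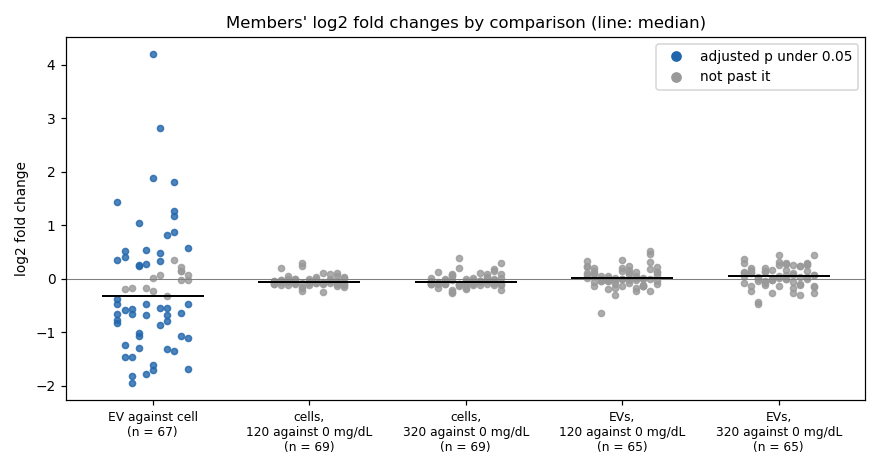
Log2 fold changes of the tested genes in 5 comparisons, with the median as a line; blue points passed an adjusted p of 0.05. The genes spread from -1.96 to 4.21 between EVs and cells, and none passed with edgeR in the dose comparisons.

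Whether ethanol changed the ratio of EV to cell level was tested as an interaction of location and dose with each EV library blocked with the cells it came from. The model had no term for the ratio of each culture, so differences in the ratio between cultures add to the SE. Of 69 genes 0 were called at 120 mg/dL (0.00534% of 18728 tested genes) and 0 at 320 mg/dL (0% of all genes), by edgeR and by DESeq2, and 0 had an unadjusted p under 0.05 at either dose (0.902 and 1.2% of all genes). The median SE of the 69 genes was 0.36 on the log2 scale at both doses. Changes of the ratio of moderate size were therefore also likely to be missed, so the counts of 0 say little about them. The smallest p at 320 mg/dL was that of Sirt1, whose EV to cell ratio was higher than in its control in 6 of 6 cultures, by 0.73 on the log2 scale (SE 0.38, 95% interval -0.04 to 1.51, adjusted p = 1). Its EV libraries held 1.03, 5.75, 3.94, 7.69, 6.46 and 7.28 CPM in the controls of 3F, 3M, 4F, 4M, 5F and 5M, where the value of 3F rests on 1 count, and 6.81, 6.55, 10.2, 8.81, 10.5 and 6.70 CPM at 320 mg/dL. The next were Setd1a at 0.53 (SE 0.36) and Sirt7 at -0.34 (SE 0.31).

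**Figure D5:**
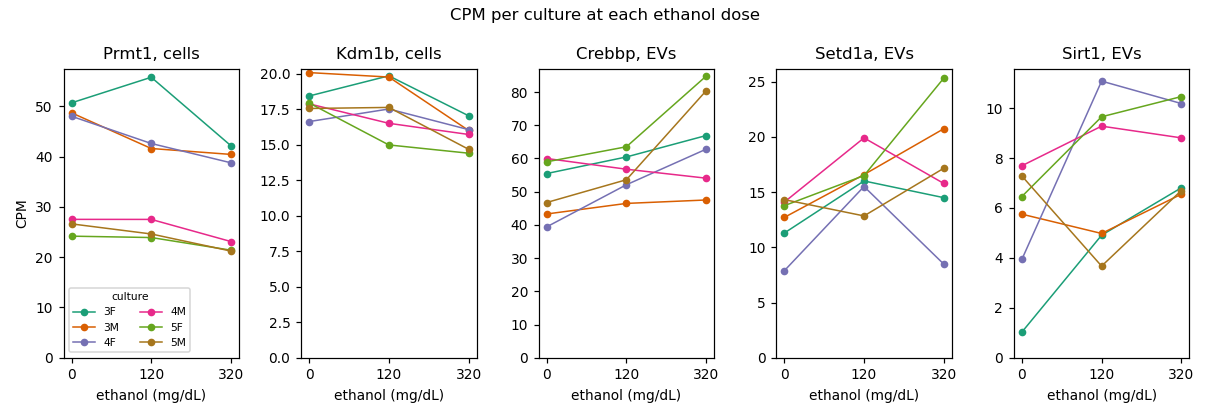
CPM in each of the 6 cultures at 0, 120 and 320 mg/dL ethanol (equally spaced), for the genes with the smallest p-values. Prmt1 in cells ends below its control in all 6 cultures, and Sirt1 in EVs has 1.03 CPM in the control of 3F.

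Cultures differed by more than doses did. In cells, the culture accounted for a median of 81% of the spread of log2 CPM over the 69 genes and the dose for 2.08%. Over all tested genes the medians were 73.8 and 2.64%. The share of the culture was the larger for 68 of 69 genes, and for 17539 of all 17792 tested genes. In EVs the medians were 51 and 5.78% over 65 genes, and 56.3 and 6.1% over all genes. The share of the culture was the larger there for 62 of 65 genes, and for 11380 of all 11880. The number of cultures exceeds that of doses, so some of this margin is built in. Prmt1 in cells had 38.8 to 55.8 CPM in the 9 libraries of 3F, 3M and 4F and 21.2 to 27.5 in the 9 of 4M, 5F and 5M. Prmt5 had 29.4 to 56.5 and 16.3 to 22.4 CPM in the same libraries, and Sirt1 went the opposite way with 15.9 to 22.5 and 28.5 to 39.9 CPM. These cultures were set apart after their values were seen and follow neither sex nor pregnancy, and no test was made.

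Female and male cultures were compared with counts summed over doses, 3 against 3 with pregnancy as a block. In cells 0 of 69 genes were called by edgeR (0.0334% of 20972 tested genes, 0.00954% higher and 0.0238% lower), 4 had an unadjusted p under 0.05 (5.8% against 7.78%), and DESeq2 called 1, Sirt5 (1.04% of all genes it tested). Sirt5 was higher in females in 3 of 3 pregnancies, by 0.95 on the log2 scale (adjusted p = 0.484, SE 0.22), and DESeq2 gave an adjusted p of 0.041. Hdac5 had -0.65 (adjusted p = 0.593, SE 0.21) and was lower in 3 of 3. The median SE was 0.21 in cells and 0.23 in EVs with 3 cultures a sex, and even the 0.95 of Sirt5 did not pass in edgeR. Differences of moderate size were therefore likely to be missed, so the counts of 0 say little about them. In EVs 0 of 68 genes were called by edgeR (0% of 14847 genes) or DESeq2, and 5 had an unadjusted p under 0.05 (7.35% against 20.7%), led by Setd7 at -0.70 (adjusted p = 0.199, SE 0.19) and Hdac9 at 0.79 (adjusted p = 0.199, SE 0.22). When the 9 libraries of a sex were taken one by one, 18 of 69 genes passed in cells (17.3% of all genes) and 9 of 62 in EVs (27.1% of all genes), but that count treats the 3 libraries of a culture as independent.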

How the data were processed

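RNA sequencing, after depletion of ribosomal RNA, gave 18 libraries from EVs and 18 from cells. The study's methods report high RNA integrity for cells, but for EV RNA an accurate integrity number could not be obtained. EV and cell RNA were also isolated with different kits. Both points coincide with location, and their part in the differences between EVs and cells was not tested. Reads were trimmed, deduplicated and mapped to mm39 with STAR by the authors, whose deposited HTSeq tables hold whole, unnormalized counts for each gene. Whether HTSeq counted by strand is not given in the sources used here, and 44 of the 69 genes share exon bases with a gene on the opposite strand, so such counts are uncertain. In R 4.3.3, edgeR 4.0.16 kept genes by filterByExpr (minimum count 10, minimum total 15 in the compared groups), scaled libraries by TMM and fitted the quasi-likelihood test; p was adjusted by Benjamini-Hochberg over all tested genes, with a threshold of 0.05. The model of EVs against cells held sex and dose, and so takes libraries of a culture as independent. Dose tests had the culture as a block, ratio tests the EV and cell pair, and sex tests the pregnancy. The labels tie same-named libraries to one culture. The median correlation of their deviations from group means was 0.702 and 0.69 in cells and 0.175 and 0.319 in EVs (120 and 320 mg/dL with control), and 0.0664 between EVs and the cells that released them. Log2 CPM used a prior count of 1. The alternatives were DESeq2 1.42.0, median-of-ratios factors, library totals, no filter, thinning of all libraries to one depth, omission of each pregnancy in turn and other blocks. DESeq2 was run on all genes with a count, without the filter. Named genes were 15 well-known members, the 2 most changed in each direction and role that moved one way in all 6 cultures, the 3 smallest p-values of each other comparison and the 3 highest and lowest levels per length. Others named with values were chosen after their values were seen. Among them were Kmt5a, Kmt5c, Setd1b, Ezh1, Hdac5, Sirt5, Sirt2, Sirt4, Kmt2b, Kmt2c and the partners. The members and lists were chosen with earlier results of these data known. Gene positions, exon lengths and sequences are from GENCODE on GRCm39, which matched all 69 genes by symbol. The scripts were tested on simulated data, where changes of moderate size in the ratio and by sex in cells were not recovered. Figures were drawn with Python and matplotlib. EV values are limited by totals as low as 959217 counts, and a gene with 10 counts carries a large counting error.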

Additional observations from a re-analysis of the deposited data

Results flagged for a closer look

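Among the 44 named genes, 264 groups of 6 libraries were searched for a library far from the others (Dixon's ratio of gap to range on CPM, at its 95% limit), and 15 were found, 11 in EVs and 4 in cells, where chance flags about 1 group in 20. The EV library of culture 4F at 320 mg/dL gave 5 of them. It had the highest value of Sirt5 (100 CPM, next 10.5) and the lowest of Ep300 (8.49, next 28.1), Ezh2 (20.4, next 54.8), Prmt1 (8.49, next 20.7) and Prmt2 (6.79, next 17.6), and its share of counts on the 69 genes was the lowest. The EV library of culture 3M at 120 mg/dL, with the smallest total, had the lowest Ep300 (14.9 CPM, next 29.3) and Kdm2a (38.2, next 44.2).

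Other EV libraries that stood apart were the control of 3F for Kat5 (688 CPM, next 360), culture 5M for Kmt2d at 120 mg/dL (367, next 171) and for Kmt5b in the control (51.2, next 39.4), and culture 5F at 120 mg/dL for Kmt5a (47.6, next 99.6). In cells they were the control of 5F for Hdac11 (4.32 CPM, next 3.14), 3F at 120 mg/dL for Hdac2 (137, next 114), 3M at 320 mg/dL for Kat7 (52.5, next 39.9) and 3M at 120 mg/dL for Kmt2d (23.0, next 40.6). Kat5, Kmt2a, Kmt2d and Hdac2 were called in the same direction between EVs and cells with these libraries' pregnancies left out in turn.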

How the results depend on the processing

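Between EVs and cells the number of called genes (53) stayed within 1.5 times under all 13 alternatives, from 39 in control libraries alone to 60, but its split moved: 9 higher and 51 lower without the filter, 24 and 17 after thinning, 9 and 30 in control libraries alone, 9 and 36 with counts summed over doses, and, chosen after seeing the data, 12 and 34 without the 6 shallowest EV libraries and 13 and 36 without the EV library of culture 4F at 320 mg/dL. The replicate block of EV and cell pairs gave 52, 19 higher. Thinning and filters change which genes are tested, and the shares of all genes are not given beside these splits. The members' median less that of all genes (-0.24) was -1.89 with DESeq2, which was also run unfiltered, and -1.32 in edgeR without the filter. It was -0.36 in control libraries alone, -0.53 with counts summed, 0.076 after thinning and -0.27 to -0.028 with a pregnancy left out. Among the genes named by the rule, reversed were Ezh2 (0.08) at -0.71 with library totals, -0.54 without the filter, -0.19 with counts summed, -0.040 without set 5 and -0.058 without the 4F library; Kat7 at -0.51 with library totals, -0.33 without the filter and -0.034 with counts summed; Kat6a at -0.21 and -0.094 and Hdac5 at -0.19 and -0.086 with library totals and without the filter; Sirt5 at -0.061 with library totals; and Kdm6b at 0.23 after thinning and 0.18 without set 5. Over all 67 tested genes, 20 differed in direction between 4 scalings, and of the 53 called genes 12 changed sign in at least 1 alternative. With doses, Hdac2 in EVs at 320 mg/dL was -0.000967 with library totals, and the Prmt9 ratio at 120 mg/dL was -0.19 without set 5. DESeq2 called 1 gene in cells at 320 mg/dL and 1 by sex in cells; libraries one by one gave 18 by sex in cells (17.3% of all genes) and 9 in EVs (27.1%). The members' median by sex in EVs less that of all genes (-0.09) was -0.51 with DESeq2, also unfiltered, and -0.48 in edgeR without the filter. No dose or ratio count moved without the replicate block (0 in each). The cause of each change was otherwise not tested. EV counts limit these genes: 33 of 69 reach 10 counts in every EV library.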

Other observations

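Differences between female and male cultures in the EV to cell difference and in the ethanol response were fitted as interactions after the data were seen. For 320 mg/dL in cells 0 of 69 genes passed in edgeR, but 24 had an unadjusted p under 0.05, or 34.8% against 18.6% of all 17792 tested genes, of which 0 passed. The smallest was Kmt2a, whose log2 response in female less that in male cultures was -0.995 (SE 0.24, adjusted p = 0.22). Of the 69 genes 50 lay below 0, with a median of -0.185 against -0.016 for all genes. Without the cell library of culture 3F at 320 mg/dL 18 genes had an unadjusted p under 0.05, or 26.1% against 12.6%. In that fit 41 of 69 genes lay below 0, with a median of -0.116 against -0.012 for all genes, and the smallest p was that of Setd1b. For 120 mg/dL in cells the shares were 8.7 and 7.69%, and in EVs they were 4.62 and 4.05% at 120 mg/dL and 3.08 and 3.75% at 320 mg/dL. For the EV to cell difference 0 of 69 genes passed while 601 of 18728 genes did, with Kat2b closest (0.61, SE 0.19, adjusted p = 0.0734). That fit treats the 3 libraries of a culture as independent samples of a sex. Its p-values and the 601 therefore do not measure the spread between cultures.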
